A study of Mus musculus with 6 samples.

Results

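The p200 genes, also called the PYHIN or HIN-200 genes, are a cluster of interferon-inducible genes on mouse chromosome 1. The 10 members described here are Aim2, Ifi203, Ifi204, Ifi206, Ifi208, Ifi209, Ifi211, Ifi213, Ifi214 and Mndal, out of 29370 genes in the deposited matrix. They were picked by name with the palmitate contrast already known, so their differences between groups are given as a description, with no test. The rule that picked them sets Ifi211 against the others; in these libraries Aim2 was lower as well, and Ifi204 was level. CD8+ T cells of wild-type (WT) mice were given 100 µM palmitate, a saturated fatty acid, in 3 libraries, and the same kind of cells were kept as controls in 3 libraries. The cells of both groups were taken from pancreas, spleen and lymph nodes, and RNA was sequenced 48 h into the treatment. The sources used here do not give what the control medium contained instead, or whether the libraries came from separate mice or cultures.

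Most p200 proteins carry a pyrin domain, which binds other pyrin domains, a HIN domain, which binds double-stranded DNA, or both. AIM2 is the best understood: on cytosolic DNA it recruits the adaptor ASC (Pycard) and caspase-1 into an inflammasome, which matures interleukin-1 family cytokines and opens gasdermin D pores. IFI204, a mouse relative of human IFI16, has been linked to signalling through STING. Many genes of the cluster are induced by interferon through promoter elements that bind IRF proteins, the best known being the interferon-stimulated response element (ISRE).

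RefSeq promoter sequences on GRCm38.p6, covering 250 bases before and 50 after the start site, were found for 9 of the 10 members, and none for Ifi204. Of those shown, Ifi213 had the highest fold among the members, Ifi214 and Ifi209 have near-identical promoters, and Ifi211 and Aim2 were the members lower with palmitate. Capitals mark the ISRE core, a pair of GAAA runs with 2 bases of any kind between them, searched on both strands.
Ifi213 promoter, chr1:173599223-173599522, minus strand: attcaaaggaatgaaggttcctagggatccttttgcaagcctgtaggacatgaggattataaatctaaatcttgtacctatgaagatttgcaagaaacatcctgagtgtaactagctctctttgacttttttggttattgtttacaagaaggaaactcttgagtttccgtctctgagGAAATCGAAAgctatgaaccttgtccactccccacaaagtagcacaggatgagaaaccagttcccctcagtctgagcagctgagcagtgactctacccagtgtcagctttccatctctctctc
Ifi214 promoter, chr1:173535908-173536207, minus strand: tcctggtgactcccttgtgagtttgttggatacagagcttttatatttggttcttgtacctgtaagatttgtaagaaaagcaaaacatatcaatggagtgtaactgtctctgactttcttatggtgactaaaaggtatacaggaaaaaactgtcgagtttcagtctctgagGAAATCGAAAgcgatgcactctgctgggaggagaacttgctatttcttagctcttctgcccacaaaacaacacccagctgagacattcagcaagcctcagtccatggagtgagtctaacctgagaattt
Ifi209 promoter, chr1:173630609-173630908, plus strand: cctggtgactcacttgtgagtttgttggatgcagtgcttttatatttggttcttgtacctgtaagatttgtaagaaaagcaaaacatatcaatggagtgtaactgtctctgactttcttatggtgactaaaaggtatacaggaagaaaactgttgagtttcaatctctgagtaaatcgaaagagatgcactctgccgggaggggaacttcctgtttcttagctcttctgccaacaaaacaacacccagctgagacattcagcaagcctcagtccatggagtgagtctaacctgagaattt
Ifi211 promoter, chr1:173912997-173913296, minus strand: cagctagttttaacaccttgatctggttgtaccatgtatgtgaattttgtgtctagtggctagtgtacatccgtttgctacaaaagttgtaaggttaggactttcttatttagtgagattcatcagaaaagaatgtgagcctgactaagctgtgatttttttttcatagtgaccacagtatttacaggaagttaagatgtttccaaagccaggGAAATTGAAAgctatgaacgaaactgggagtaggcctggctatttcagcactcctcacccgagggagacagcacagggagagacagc
Aim2 promoter, chr1:173420354-173420653, plus strand: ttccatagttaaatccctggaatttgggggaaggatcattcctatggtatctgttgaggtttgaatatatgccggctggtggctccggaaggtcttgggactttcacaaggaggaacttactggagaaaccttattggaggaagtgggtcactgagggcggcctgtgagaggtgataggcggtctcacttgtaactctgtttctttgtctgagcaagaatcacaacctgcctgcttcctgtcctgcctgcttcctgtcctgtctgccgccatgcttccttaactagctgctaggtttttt

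The ISRE core was present in a promoter of 7 of the 9 members, at 73 bases (position −73) before the start site in Ifi213, −79 in Ifi214, −58 in Ifi208, −40 in Ifi206, −37 in Ifi211, −36 in Mndal and −35 at the second annotated start site of Ifi203. The second Mndal start site has its own match, GAAAGAGAAA on the opposite strand, at −54. The count above is by member, and the 9 members have 11 promoters. Among 32851 RefSeq mouse promoters of the same length, 1131 (3.44%) hold the core. Neither Ifi209 nor Aim2 held it. Where Ifi214 reads GAAATCGAAA, Ifi209 reads TAAATCGAAA at the same place, and their promoters were otherwise alike, with 95.3% identical bases. Ifi211 carries the core as GAAATTGAAA. The core was present in Ifi211, which was lower with palmitate, and in members with high and with low folds. Mndal, with the core, and Ifi209, without it, both had a log2 fold change of 0.45, palmitate over control. Whether the core bears on the folds was not tested. The promoters are copies of one another to a large extent (Ifi213 and Ifi208 share 89.5% of bases, Mndal and the second Ifi203 site 90.7%), so the matches are not independent. The interferon-gamma-activated site motif TTCNNNGAA (GAS) was in 0 member promoters, against 8.30% of all promoters. The TATA box letters TATAAA, searched on both strands, were in those of Ifi206, Ifi208, Ifi209, Ifi213 and Ifi214, against 13.6% of all promoters. They lay far upstream, at −160 in Ifi206, −178 in Ifi208, −212 in Ifi209, −193 in Ifi213 and −211 in Ifi214. No working TATA box is read from these letters. A match is a run of letters, not a shown binding site, and a missing match says nothing of the factor.

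Gene counts summed to 16724588 to 24777611 in the palmitate libraries and 26042768 to 29362276 in the control libraries. All 7 CD8 T cell markers were measured. They summed to 1906 to 2174 CPM (counts scaled to a common library total) with palmitate and 1494 to 1774 CPM in controls. Of these markers 5 were called higher, where 11.1% of all tested genes were. With 1 library left out, Cd8b1 kept its call in 1 of 6 fits and Cd3g in 2. Cd8a and Cd3e kept theirs in 3 and Cd3d in 5. Lck overlapped between groups and was not called. Thy1 went the other way, at 404, 357 and 367 CPM with palmitate and 425, 430 and 424 CPM in controls, and was not called. The 10 B and plasma cell markers summed to 277 to 314 CPM with palmitate and 173 to 243 CPM in controls. Ighm made up most of this sum, at a mean of 243 CPM with palmitate and 191 CPM in controls, and was not called. Of 9 tested, 3 were called higher and 0 lower. Those called were Jchain (mean 9.76 CPM with palmitate, 1.78 CPM in controls), Igha (17.4 and 1.88 CPM) and Cd79a (0.835 and 0.21 CPM). With 1 library left out, Jchain kept its call in 6 of 6 fits, Igha in 5 and Cd79a in 3. Cd79a rests on 4 to 20 reads per library. Igha was uneven with palmitate, at 10.8, 12.9 and 28.5 CPM. The 10 macrophage and monocyte markers, from cells known for high p200 RNA, summed to 8.47 to 13.1 CPM with palmitate and 7.22 to 10.4 CPM in controls, with Cd163 at 0 and 0 of 3 tested called. The 7 dendritic cell markers summed to 10.7 to 18.1 CPM with palmitate and 11.9 to 17.1 CPM in controls, with Cd209a at 0. The 4 erythroid markers summed to 4.53 to 7.43 CPM with palmitate and 1.16 to 2.61 CPM in controls. The part of B cell or erythroid RNA in the p200 levels was not tested. In bulk RNA, fewer cells of a type and less RNA per cell cannot be told apart.

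Ifi213 differed most among the members that were higher with palmitate. Ifi213 measured 58.7, 64.9 and 55.0 CPM in palmitate libraries 1 to 3, against 29.0, 15.8 and 17.0 CPM in control libraries 1 to 3. All palmitate libraries stood above all controls, and control 1 was the highest of its group. The ratio of means was 2.89, and the fitted log2 fold change, palmitate over control, was 1.53 ± 0.23 (SE). Ifi213 is listed in RefSeq under the synonym Pydc4, a pyrin domain gene.

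Ifi208, with the synonym Pydc3, measured 59.4, 71.0 and 69.6 CPM with palmitate and 36.9, 20.8 and 26.9 CPM in controls, with no overlap. Its log2 fold change was 1.24 ± 0.20. Ifi214 measured 55.5, 76.6 and 70.7 CPM with palmitate and 33.7, 26.8 and 34.2 CPM in controls, again with no overlap. Its log2 fold change was 1.10 ± 0.14. For both genes palmitate library 1 was the lowest of its group.

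Ifi206 measured 32.3, 38.4 and 37.6 CPM with palmitate and 22.0, 17.2 and 16.8 CPM in controls. The groups stood apart, at a log2 fold change of 0.95 ± 0.13. Ifi209, known also as Pyhin1, measured 89.7, 123 and 132 CPM with palmitate and 77.5, 83.8 and 91.4 CPM in controls. Palmitate library 1 lay below control 3, so the groups overlapped in CPM, and the log2 fold change was 0.45 ± 0.14.

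**Figure D1:**
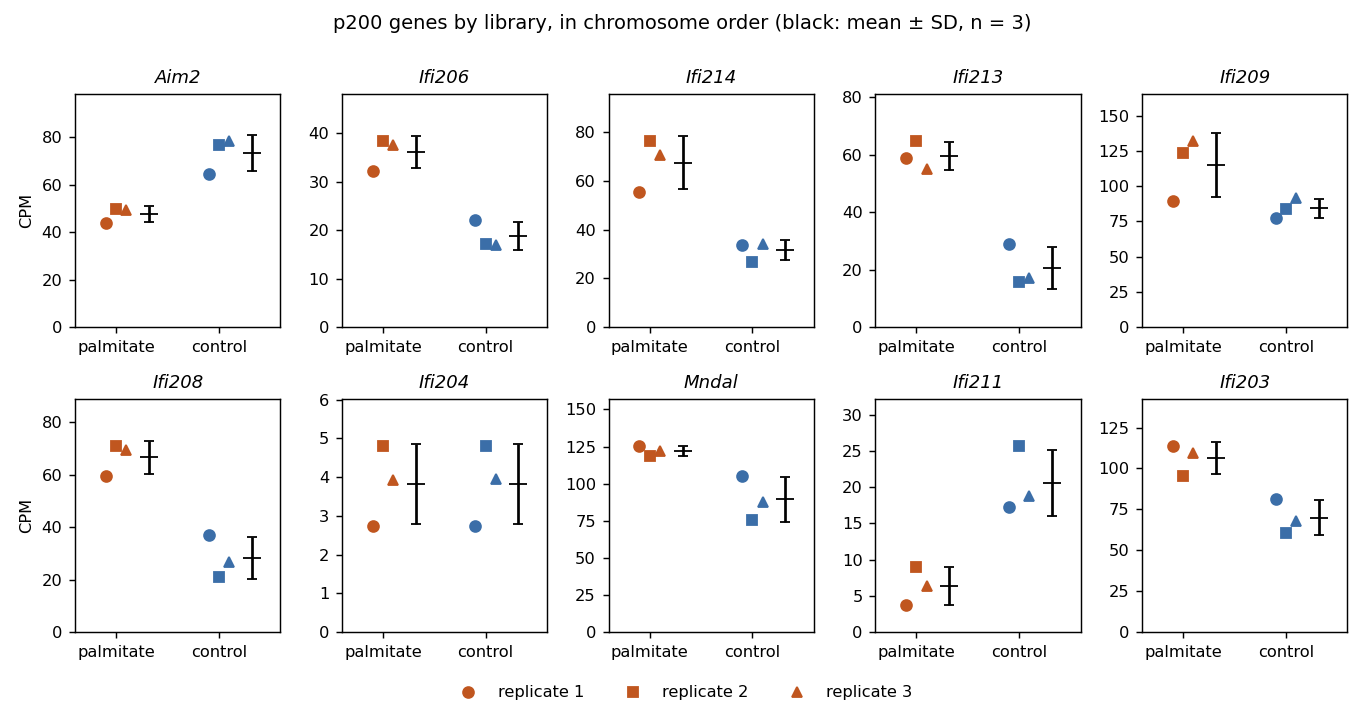
CPM of each p200 gene (vertical axes, each from 0) in the 3 palmitate libraries, left, and the 3 control libraries, right, with the group mean and SD (n = 3). Ifi213 averaged 59.5 CPM with palmitate and 20.6 CPM in controls, Ifi211 averaged 6.36 CPM with palmitate and 20.5 CPM in controls, and the Ifi204 groups sat on each other.

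Farther along the cluster, Mndal and Ifi203 were higher by smaller folds. Mndal, related by name to the human nuclear antigen MNDA, measured 126, 119 and 122 CPM with palmitate and 105, 75.3 and 87.9 CPM in controls. Ifi203 measured 114, 95.6 and 109.7 CPM with palmitate and 81.6, 60.5 and 67.7 CPM in controls. In both genes the lowest palmitate library stood above the highest control, and the log2 fold changes were 0.45 ± 0.11 for Mndal and 0.60 ± 0.12 for Ifi203.

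Ifi204 was level and low. It measured 2.74, 4.80 and 3.94 CPM with palmitate and 2.75, 4.81 and 3.95 CPM in controls, with a log2 fold change of −0.00 ± 0.28. It rests on 66 to 122 reads per library, and the closeness of same-numbered libraries is finer than counting error, so nothing is read from it.

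Ifi211, which RefSeq also lists as Mnda and Ifi205b, had the lowest ratio of the members. It measured 3.79, 8.96 and 6.32 CPM with palmitate and 17.2, 25.7 and 18.7 CPM in controls. Every palmitate library stood below every control, palmitate library 1 being the lowest. The mean was 3.23-fold lower with palmitate, at a log2 fold change of −1.69 ± 0.31, from 94 to 228 reads per palmitate library and 500 to 641 reads per control library.

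Aim2, the inflammasome sensor, was lower by a smaller fold. It measured 43.8, 49.7 and 49.3 CPM with palmitate and 64.6, 76.9 and 78.6 CPM in controls, with no overlap. The mean was 1.54-fold lower with palmitate and the log2 fold change was −0.63 ± 0.10.

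In the test over all genes (edgeR, quasi-likelihood, adjusted p under 0.05), 6 members were called higher, where 11.1% of the 12068 tested genes were, and 2 were called lower, where 11.7% were. Ifi204 and Ifi209 were not called. In CPM, 6 members did not overlap with palmitate higher and 2 with palmitate lower, against 21.6% and 21.2% of tested genes, or 42.9% in either direction. A log2 fold change of at least 1 was seen in 3 members and in 4.02% of tested genes, and one of −1 or lower in 1 member and 1.69%. The median log2 fold change was 0.53 over the members and 0.02 over all tested genes. Because this contrast chose the members, nothing is read from these counts. With the replicate number as a block, 9 members were called, where 33.1% of genes were; Ifi209 was the one added. Ifi209 was also called with upper-quartile scaling, the minimum of 5 CPM, DESeq2 and transcript sums with length offsets. Leaving out 1 library at a time, Ifi206, Ifi208, Ifi213, Ifi214 and Aim2 kept their call in all 6 fits, Ifi203 and Ifi211 in 5 and Mndal in 1, while Ifi209 gained one in 1. Over all tested genes 1343 were called higher and 1416 lower, and 1651 and 1052 with upper-quartile scaling.

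**Figure D2:**
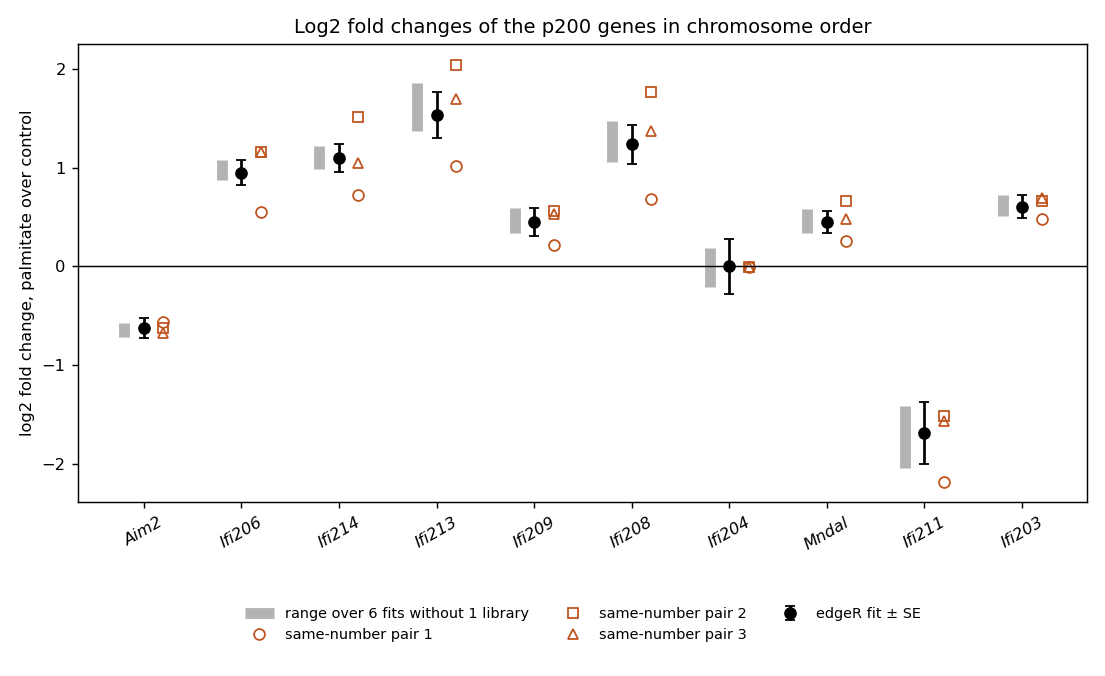
Log2 fold change, palmitate over control, of the 10 p200 genes in their order along the chromosome: filled points are the edgeR fit with its SE, open symbols the ratios of same-numbered libraries, and grey bars the range over 6 fits that each left out 1 library. Ifi213 is highest at 1.53, Ifi211 lowest at −1.69, and same-numbered pair 1 is the smallest ratio in every member that was higher.

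Per unit of transcript length, in TPM, Mndal had the highest level with palmitate at 102 ± 5.03 TPM (SD, n = 3 libraries), followed by Ifi203 at 60.1 ± 4.51 TPM and Aim2 at 52.4 ± 2.36 TPM. In controls Aim2 came first at 70.1 ± 5.15 TPM, with Mndal at 65.5 ± 13.8 TPM, and these neighbours overlapped. Ifi213 was at 37.7 ± 4.77 TPM with palmitate and 13.1 ± 4.55 TPM in controls. Ifi211 was at 4.33 ± 1.75 TPM with palmitate and 13.6 ± 2.99 TPM in controls; it stood among Ifi214, Ifi213 and Ifi208 in controls and beside Ifi204 with palmitate. With palmitate, Ifi209, Ifi213 and Ifi214 did not differ beyond their spread. The Ifi209 groups, which overlapped in CPM, stood apart in TPM, at 33.2 to 46.0 TPM with palmitate and 27.7 to 30.1 TPM in controls.

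The 10 members together measured 585.2, 652.0 and 656.6 CPM with palmitate, against 470.1, 407.6 and 443.3 CPM in controls. The groups did not overlap, and the ratio of means was 1.43. Reads that Salmon, the quantifier, divides among these paralogs stay inside this sum. Aim2 made up 13.8% ± 0.548 of the summed TPM with palmitate and 26.4% ± 3.53 in controls. Ifi213 made up 9.92% with palmitate and 4.83% in controls, and Ifi211 made up 1.13% with palmitate and 5.16% in controls. In these libraries the mix of members differed between the groups as well as the sum. Both are given as description only, because this contrast chose the members.

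**Figure D3:**
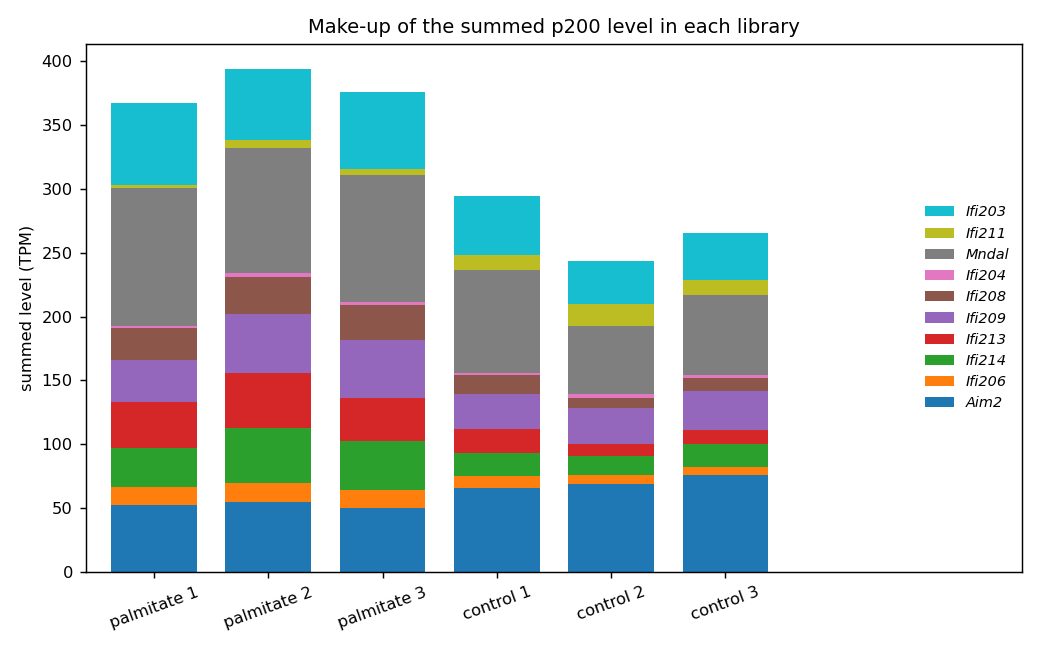
TPM of the p200 genes stacked per library, palmitate libraries left and control libraries right. The stacks average 379.1 TPM with palmitate and 267.7 TPM in controls, and the Aim2 layer is thinner with palmitate while the Ifi213 layer is thicker.

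At the level of transcripts, the share of the members' pooled reads on transcripts annotated as retained introns differed, a comparison chosen after its values were seen. It was 11.3%, 8.77% and 8.40% in palmitate libraries 1 to 3 and 6.72%, 4.27% and 4.25% in control libraries 1 to 3, with no overlap. In all other genes it was 4.69% to 5.56% with palmitate and 4.58% to 5.47% in controls, which overlapped. The pooled share also moves with the mix of members, since Ifi213, at 27.6% ± 3.14 of its own reads with palmitate and 23.5% ± 1.17 in controls, made up more of the sum with palmitate, and Aim2, with no such transcript, made up less. Within single genes, the groups stood apart in 2 of the 6 members that have such a transcript, Ifi203 and Mndal, and overlapped in Ifi204, Ifi208, Ifi213 and Ifi214. How often the groups stand apart among all genes with such a transcript was not computed, so nothing is read from this count. The Ifi203 share was 9.08% ± 1.48 with palmitate and 4.41% ± 1.06 in controls, and the Mndal share was 13.0% ± 1.36 with palmitate and 7.96% ± 1.25 in controls (SD, n = 3 each). In Ifi204 the mean was lower with palmitate, at 31.2% ± 12.4, than in controls, at 35.8% ± 7.79. For Ifi203, the retained-intron transcript ENSMUST00000138143 measured 7.01, 4.68 and 4.57 TPM with palmitate and 2.56, 1.29 and 1.25 TPM in controls. For Mndal, ENSMUST00000189474 measured 15.6, 12.5 and 12.5 TPM with palmitate and 8.46, 4.03 and 4.10 TPM in controls. The other such Mndal transcript, ENSMUST00000187636, measured 7.29, 4.16 and 4.66 TPM with palmitate and 3.18, 3.20 and 3.81 TPM in controls. In none of these transcripts did the groups overlap. As a share of Mndal TPM, ENSMUST00000189474 was at 13.2% ± 1.10 with palmitate and 8.21% ± 2.08 in controls. ENSMUST00000187636 was at 5.22% ± 1.36 with palmitate and 5.34% ± 1.20 in controls. These transcripts share sequence with the spliced ones, so the division is the quantifier's estimate.

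The main Ifi214 transcript, ENSMUST00000090406, is annotated as a target of nonsense-mediated decay. It measured 23.9, 37.0 and 33.1 TPM with palmitate and 15.8, 13.6 and 16.3 TPM in controls. Both main Aim2 transcripts were lower: ENSMUST00000173023 measured 25.3, 26.7 and 26.4 TPM with palmitate and 34.4, 33.6 and 40.8 TPM in controls, and ENSMUST00000166137 measured 13.4, 16.0 and 12.0 TPM with palmitate and 21.3, 24.1 and 24.5 TPM in controls. Another, ENSMUST00000147604, overlapped between groups. A minor one, ENSMUST00000135370, was higher, at 4.77, 3.32 and 3.45 TPM with palmitate and 2.61, 1.52 and 3.08 TPM in controls. It rests on 6 to 18 reads per library. The only Ifi211 transcript in the tables, ENSMUST00000009340, measured 2.67, 6.16 and 4.15 TPM with palmitate and 11.8, 17.0 and 11.9 TPM in controls.

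Members share sequence, which bears on how far reads can be told apart. Of all 31-base words of its transcripts, Aim2 has 95.2% to itself and shares 0% with other p200 genes. Ifi213 has 74.1% to itself, Ifi208 65.5% and Ifi209 52.8%. Ifi211 has 21.1% to itself, and shares 49.5% with Ifi205, 38.6% with Ifi204 and 25.2% with Mndal. Ifi205, the nearest copy, had 17, 17 and 13 reads with palmitate and 11, 23 and 14 in controls, and a log2 fold change of 0.25 ± 0.40 (edgeR adjusted p = 0.678). Whether reads moved between Ifi211 and Mndal in the quantification was not tested.

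**Figure D4:**
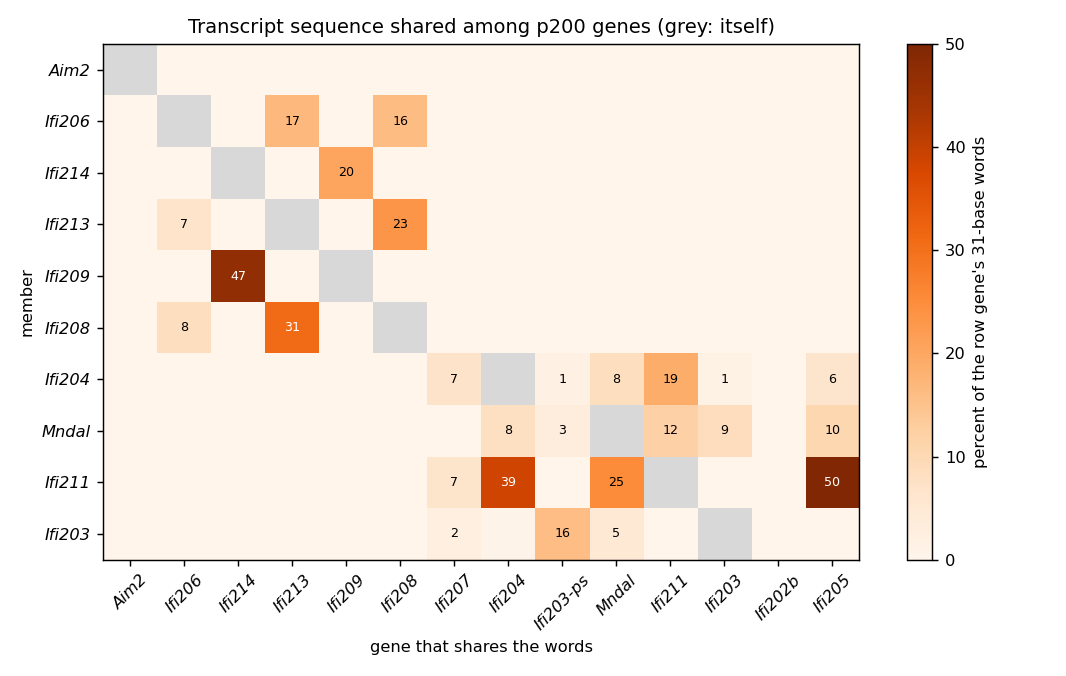
Percent of each p200 gene's 31-base transcript words (rows) found in every other p200 gene (columns), in chromosome order. Ifi211 shares 49.5% with Ifi205 and 38.6% with Ifi204, and Aim2 shares 0% with the other p200 genes.

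Of the other p200 genes, Ifi202b had 0 reads in every library, Ifi207 had 2, 7 and 2 reads with palmitate and 1, 5 and 0 in controls, and Ifi203-ps had 0, 0 and 0 with palmitate and 0, 1 and 1 in controls. Among tested neighbours outside the cluster, Fcer1a, the alpha chain of the high-affinity IgE receptor, rose with palmitate from a low base. It measured 2.26, 3.73 and 1.97 CPM with palmitate and 0.516, 0.802 and 0.74 CPM in controls, with a log2 fold change of 1.96 ± 0.33 (edgeR adjusted p = 0.00764). Dusp23 (0.57 ± 0.49, adjusted p = 0.43), Cfap45 (0.38 ± 0.26, 0.317), Olfr414 (0.16 ± 0.41, 0.802) and Fh1 (−0.10 ± 0.07, 0.316) did not pass the test.

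By profile over the 6 libraries, the genes nearest to Ifi211 included Pramel4 at a root-mean-square distance of 0.156 in log2 CPM, Dennd5b at 0.235, Slc1a2 at 0.253 and Ccdc63 at 0.257. The genes nearest to the mean of the other members were Vps4a at 0.0462, Dph7 at 0.0498, Bet1l at 0.0546, Tmem43 at 0.0573 and Tcta at 0.0656.

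Of 29 tested genes for cytosolic DNA sensing and DNA removal, 5 rose and 5 fell (17.2% each way), where 11.1% of all tested genes rose and 11.7% fell. The median log2 fold change of the list was −0.04. Cgas, which makes the messenger cGAMP on cytosolic DNA, fell to 24.8, 25.8 and 25.2 CPM with palmitate, against 44.0, 53.8 and 47.0 CPM in controls (log2 fold change −0.93 ± 0.10, edgeR adjusted p = 0.00254). Nlrc3, which restrains STING, fell to 57.8, 60.9 and 49.8 CPM, against 86.3, 121 and 96.1 CPM in controls (−0.85 ± 0.14, adjusted p = 0.00684). The DNA-binding Ku subunit Xrcc6 fell by 0.37 on the log2 scale (SE 0.06, adjusted p = 0.00855; the matrix held 85.3% of its reads).

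Downstream, the kinase Ikbke rose to 67.4, 60.0 and 55.4 CPM with palmitate, against 39.1, 23.3 and 25.1 CPM in controls (1.06 ± 0.20, adjusted p = 0.0129; 0.0588 without control library 3). For STING itself (Tmem173) the log2 fold change was −0.07 ± 0.16 (adjusted p = 0.792; 42.6% of its reads in the matrix), the kinase Tbk1 −0.04 ± 0.07 (0.745) and the transcription factor Irf3 0.41 ± 0.52 (0.595; 14.3% of its reads). Irf7, which amplifies interferon production, measured 19.0, 44.3 and 43.5 CPM with palmitate and 14.7, 15.0 and 16.7 CPM in controls, with palmitate library 1 well below the other two. Its log2 fold change was 1.20 ± 0.32 (adjusted p = 0.0408; 0.0565 with the replicate block, and 0.106 to 0.145 on leaving out any library but palmitate 1).

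Of 15 tested inflammasome and pyroptosis genes, 3 rose and 0 fell at adjusted p under 0.05 in edgeR; at an unadjusted p under 0.05, 2 were lower, and DESeq2 and limma-voom also called 0 lower. Over all tested genes 11.1% rose and 11.7% fell, against 20% and 0% of this list. Txnip, a thioredoxin inhibitor that binds NLRP3, rose by 0.71 ± 0.12 (log2, adjusted p = 0.00764), Ninj1, which ruptures the membrane in pyroptosis, by 0.72 ± 0.16 (0.019) and the NLRP3 partner Nek7 by 0.29 ± 0.08 (0.0363). The Ninj1 call was lost without palmitate library 1 or 3 or control library 2 or 3 (0.0503 to 0.0862), and the Nek7 call without any library but control 2. The partners of AIM2 did not pass: Pycard had a log2 fold change of 0.49 ± 0.23 (0.167, and 0.00365 with the replicate block), Casp1 0.31 ± 0.16 (0.189) and Gsdmd 0.23 ± 0.12 (0.192). Il18 was too low to test.

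Of 24 tested genes of interferon receptors, signalling and feedback, 7 rose (29.2%, against 11.1% of all tested genes) and 1 fell (4.17%, against 11.7%), with a median log2 fold change of 0.08. Irf1 rose to 303, 304 and 338 CPM, against 227, 142 and 175 CPM in controls (0.80 ± 0.16, adjusted p = 0.0146; 0.0525 without palmitate library 3 and 0.0688 without control library 3), and Irf9 rose by 0.44 ± 0.09 (0.0156; 0.0519 to 0.0611 without palmitate library 2 or 3 or control library 3). The corepressor Irf2bp2 rose by 0.51 ± 0.08 (0.00606) and the phosphatase Ptpn6 by 0.33 ± 0.06 (0.0102; 0.0602 without control library 3). Stat2 had a log2 fold change of 0.32 ± 0.14 (0.138; 0.0377 with the block). The receptor genes Ifnar1 (−0.09, 0.346), Ifnar2 (0.15, 0.423), Ifngr1 (0.19, 0.195) and Ifngr2 (0.46 ± 0.15, 0.0603) did not pass. Ifng, the gene of type II interferon, measured 838, 1453 and 1098 CPM with palmitate and 1334, 3505 and 2433 CPM in controls, overlapping (−1.10 ± 0.39, adjusted p = 0.101; 0.00228 with the replicate block).

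Of 52 tested interferon-stimulated genes outside the cluster, 10 rose (19.2%, against 11.1% of all tested genes) and 2 fell (3.85%, against 11.7%). In either direction 23.1% were called, where 22.9% of all tested genes were, and the median log2 fold change was 0.16. Those with the smallest adjusted p were Ifit1bl1, an IFIT family gene, at 1.33 ± 0.15 (0.00312), the schlafen gene Slfn1 at 0.92 ± 0.11 (0.00312), Samd9l at 0.67 ± 0.08 (0.00312) and Uba7, the enzyme that activates ISG15, at 1.37 ± 0.23 (0.00933; 0.0532 without control library 3). Isg15 had a log2 fold change of −0.29 ± 0.49 (0.70) and Mx1 0.18 ± 0.41 (0.783).

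**Figure D5:**
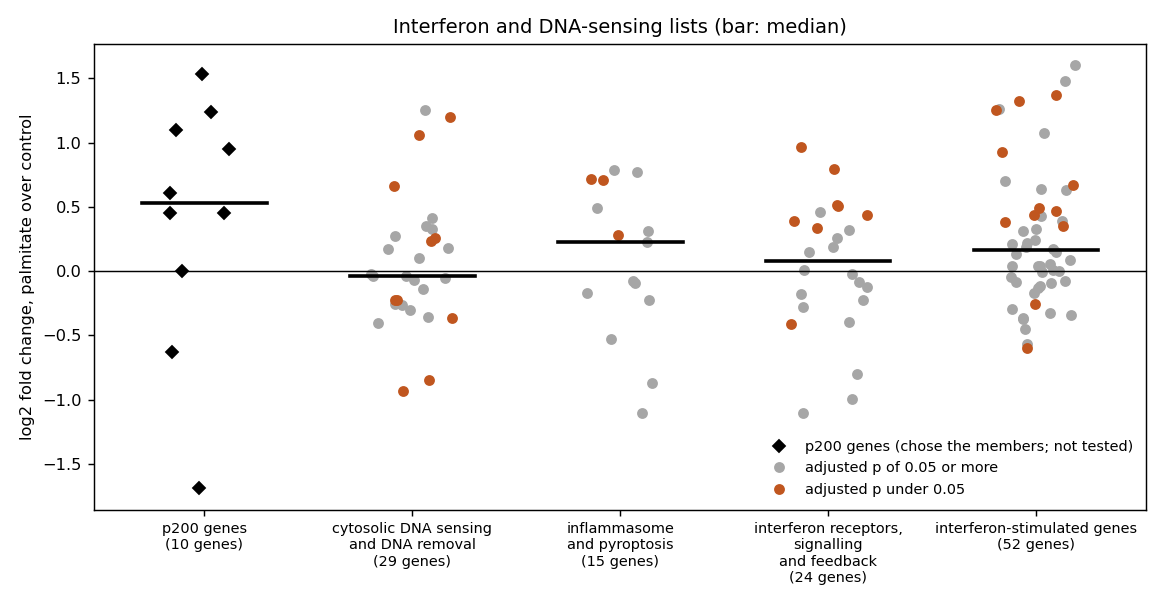
Log2 fold change, palmitate over control, of the 10 p200 members and of every tested gene in the 4 pathway lists, with each list's median. The list medians run from −0.04 for cytosolic DNA sensing to 0.23 for the inflammasome, and the p200 members have a median of 0.53.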

How the data were processed

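The 6 RNA-seq libraries were made, per the labels' protocols, with a SMARTER mRNA-Seq kit from RNA purified on RNeasy columns. In their processing notes the submitters list the build GRCm39 and the tools Salmon 1.10.0, DESeq 1.42.0 and Trim Galore 0.6.10, with no role or order; the sources used here give no strand setting. Gene counts were deposited by the authors as whole numbers in 1 matrix. The authors also deposited Salmon's transcript estimates of each library, in expected counts (NumReads) that need not be whole, with lengths. The deposited TPM values scale these estimates by effective length and library total. Where near-identical transcripts share reads, Salmon splits them by a model, so a single paralog's level is less certain than the sum.

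Symbols from GENCODE M21 and a table of gene names covered 29087 of 29370 matrix genes and 98.78% of 116224 transcripts. The matrix held nearly all of the members' transcript reads, the lowest share being 99.89%, for Mndal. Of its columns, 0 were unused, and 0 rows named no gene. GENCODE M21 and RefSeq are of GRCm38, so the promoter coordinates belong to that build.

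The test was run on the counts with edgeR 4.0.16 in R 4.3.3 (TMM scaling, default low-count filter, robust quasi-likelihood test, two-sided, Benjamini-Hochberg at 0.05 over 12068 genes), with all 6 libraries and the group as the single term. CPM is counts on TMM-scaled library sizes. The scripts were tested on simulated data. The alternatives were upper-quartile and RLE scaling, no filter, at least 5 CPM on average, the replicate block, limma-voom (limma 3.58.1), DESeq2 1.42.0, each library left out, and transcript sums (expected counts rounded to whole numbers) with and without length offsets.

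Same-numbered libraries of the groups deviated together (correlation across genes 0.23, 0.13 and 0.15, against −0.18 to 0.06 for other pairs). The labels state no pairing, and the main test did not use the replicate number. It entered only as the block in an alternative fit, which called 3993 genes, against 2759 in the main test. Replicates differed beyond sampling noise (chi-square per gene 11.5 to 37.6). Since no label gives separate animals or cultures, p-values measure the spread between libraries, which may be technical.

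Members and lists were chosen with earlier results of these data known. Named genes are the members, the called genes of each list with the lowest adjusted p (4 at most), a fixed set of pathway genes, the other p200 genes, 3 tested neighbours on each side of the cluster, and the 5 nearest profiles with a mean log2 CPM of at least 2. Some genes that this rule selects are not reported here. Isg15 and Mx1 were named after their values were seen.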

Additional observations from a re-analysis of the deposited data

How the results depend on the processing

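Over 149 alternative values of the members' folds, 148 moved by less than 1 SD, 1 moved further (Aim2, to −0.47 with transcript sums and length offsets); 5 values changed sign, all of Ifi204, which lies at 0 (0.06 with upper-quartile scaling, 0.01 with limma-voom, and −0.21 to 0.19 with 1 library left out); of 683 values for 46 named genes, 631 kept their direction and side of the threshold, 32 lost the call, 13 gained it and 7 changed sign, none of them called. Those were Ifi205 with length offsets (−0.0692), Tbk1 with upper-quartile scaling (0.0231) and with offsets (0.0736), and Olfr414 (−0.0507 to 0.338) and Tmem173 (−0.168 to 0.0737) on leaving out single libraries. The calls over all genes depend on single libraries: 1343 genes were higher and 1416 lower, against 344 to 1604 higher and 346 to 1829 lower with 1 library left out, the fewest without control library 3; leaving out any library but control 1 moved both counts by over 1.5 times. Upper-quartile scaling called 1651 higher and 1052 lower, and moved the median of all genes to 0.08. The replicate block called 1994 higher and 1999 lower, and changed the members by adding Ifi209.

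Leaving out 1 library, 4 to 6 members were called higher and 1 to 2 lower. The counts were 0 to 4 higher and 3 to 8 lower for cytosolic DNA sensing, 1 to 4 higher for the inflammasome, 2 to 7 higher and 0 to 3 lower for interferon signalling, and 3 to 16 higher and 0 to 1 lower for interferon-stimulated genes. The log2 ratio of the summed p200 level stayed at 0.47 to 0.57. The difference in share of the summed CPM, palmitate minus control, in percentage points, spanned −0.14 to 2.26 for Ifi203, −0.43 to −0.14 for Ifi204, 1.26 to 1.70 for Ifi206, 3.58 to 4.96 for Ifi208, −2.46 to 0.31 for Ifi209, −4.27 to −2.95 for Ifi211, 4.44 to 5.60 for Ifi213, 2.97 to 4.10 for Ifi214, −1.79 to 0.27 for Mndal and −10.8 to −8.20 for Aim2.

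Without a filter, cytosolic DNA sensing had 2 higher; with upper-quartile scaling it had 3 lower. The block gave 5 inflammasome genes higher, and 17 interferon-stimulated genes higher and 6 lower. Interferon signalling genes lower numbered 0 with upper-quartile scaling, 2 with the 5 CPM minimum and with limma-voom, 4 with DESeq2, 5 with the block, and 3 with transcript sums, with or without offsets. Interferon-stimulated genes lower numbered 1 with upper-quartile scaling, no filter, the 5 CPM minimum and limma-voom. In TPM the share differences were 1.01 for Ifi206, 3.05 for Ifi208, 2.69 for Mndal and −12.6 for Aim2. With all libraries in CPM they were 1.48, 4.20, −0.78 and −9.25, in that order. The sign thus changed for Mndal, and also for Ifi209, at −1.09 points in CPM and 0.15 points in TPM. The cause of these shifts was not tested. Of the p200 genes, Ifi204 and those that are not members rest on the fewest reads. How far depth limits them was not tested.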
